A study of Mus musculus with 10 samples.

Results

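The genes described are 46 genes of the lysosome and of acid granules: 21 soluble acid hydrolases and their activators, 5 lysosomal membrane proteins, 7 genes of sorting, regulation and fusion, and 13 subunits of the widely expressed proton pump. They were taken by gene symbol from a list chosen for function, with earlier results of these data known. All 46 of the 46 were among the 32648 genes measured, and all 46 passed the filter on low counts, as did 18825 genes in all. RNA was measured in renin cells of adult C57BL/6 mice, 8 to 12 weeks old, that all carried the Ren1c-YFP reporter, a yellow fluorescent protein expressed under renin gene control. The 4 groups were the left and right kidneys of 3 mice examined 72 h after coarctation, in which a constriction placed on the aorta separates the origins of the renal arteries, and the left and right kidneys of 2 sham-operated mice, in which the aorta was not exposed. From the cortex of each kidney, 1000 living cells with reporter fluorescence were sorted and made into 1 library.

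Lysosomes digest proteins, lipids and sugars with hydrolases that work at low pH. Most soluble hydrolases receive a mannose 6-phosphate tag in the Golgi apparatus and are carried to the lysosome by receptors for it, and a rotary proton pump, the V-ATPase, acidifies the compartment. The pump has a catalytic sector (V1) that splits ATP and a membrane sector (V0) that conducts protons. Juxtaglomerular cells store renin in granules that are related to lysosomes: the granules are acidic, hold lysosomal hydrolases, and are enlarged in beige mice, which lack a working Lyst gene. Cathepsin B has been studied as an enzyme that can process prorenin. Many lysosomal genes are controlled by TFEB and related factors, which bind DNA sites built on the letters CACGTG.

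That core was searched in the RefSeq promoters of GRCm38.p6, defined as 250 bases before to 50 after the start of a gene. At least 1 promoter was at hand for 38 of the 46 genes, and a gene was counted if any of its promoters held the motif. CACGTG was in 14 of these 38 genes (36.8%), against 8.09% of all 27025 genes with a promoter and 10.2% of tested genes with a promoter. The longer TCACGTGA, which contains the core, was in 7 (18.4%): Atp6v0d1, Atp6v0e, Atp6v1a, Ctsa, Ctsd, Igf2r and Mcoln1. It was in 1.12% of all genes with a promoter and 1.70% of tested genes with a promoter. The full consensus of the TFEB site, which adds a G before and a C after TCACGTGA, was in 1 gene, Igf2r (2.63%), against 0.37% and 0.60%. All 3 motifs are their own reverse complement, so that 1 search covers both strands. Members from all 5 roles are shown because the core stands before a RefSeq start site in each. The windows have 20 bases on either side and the core in capitals.
Gaa: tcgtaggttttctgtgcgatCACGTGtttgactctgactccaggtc
Glb1: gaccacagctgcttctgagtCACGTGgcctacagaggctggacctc
Lamp1: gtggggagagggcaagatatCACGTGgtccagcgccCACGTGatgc
Igf2r: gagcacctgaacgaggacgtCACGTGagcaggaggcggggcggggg
Atp6v0b: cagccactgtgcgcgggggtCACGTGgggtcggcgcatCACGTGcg
Atp6v1a: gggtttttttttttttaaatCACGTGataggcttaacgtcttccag
Each is written 5′ to 3′ on the strand of its gene. The positions are chr11:119267803-119267848 for Gaa (plus strand), chr9:114401010-114401055 for Glb1 (plus), chr8:13159080-13159125 for Lamp1 (plus), chr17:12769729-12769774 for Igf2r (minus), chr4:117887340-117887385 for Atp6v0b (minus) and chr16:44139365-44139410 for Atp6v1a (minus). The Atp6v1a window precedes a RefSeq start but lies inside the GENCODE span of that gene (44085402 to 44139705 on chromosome 16). A match of letters is a description of the window and not evidence that a factor was bound.

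Depth was 20029817 to 32006229 estimated counts per library. Ren1, the marker of the sorted cells, was at 5451 to 48620 TPM (a level corrected for transcript length and library size) in the 10 libraries. Both libraries of sham mouse 1 stood apart from the others on the first principal component, and both of coarctation mouse 1 on the second. Markers of other kidney and blood cells were also present. Of 15 macrophage and leukocyte markers, none was at 0 in every library and 4 (Cd68, Ctss, Adgre1 and C1qb) were at 0 in at least 1. The 9 intercalated cell markers, which include pump subunits, are listed for that acid-secreting cell. They summed to 15.6 to 89.3 TPM in coarctation left kidneys and to 87.1 to 167 in sham kidneys. In coarctation right kidneys the sum was 103 to 799.9 TPM, the highest in mouse 1. The pump subunit Atp6v1g3 alone made up most of the sum in each coarctation library. The 12 proximal tubule markers summed to between 1219 and 11629 TPM.

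**Figure D1:**
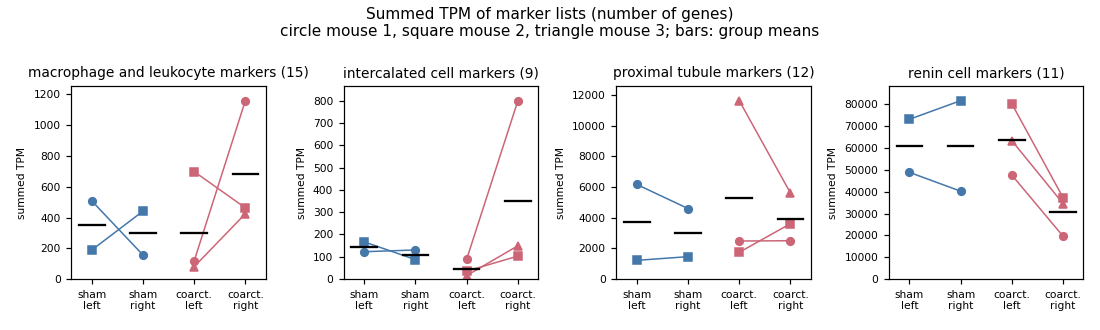
Summed TPM (vertical axes) of 4 marker lists in each library of the 4 groups (horizontal axes), with lines joining the kidneys of a mouse and bars at the group means. The intercalated cell sum is 799.9 TPM in the right kidney of coarctation mouse 1, and the renin cell sum is lower in the right kidney of each coarctation mouse (19633 to 37307 TPM) than in its left (47598 to 80245 TPM). The renin cell list includes Ren1. Of its 11 genes, 5 are higher and 6 lower on the right in coarctation by the edgeR fit (median log2 change -0.05).

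The 46 lysosomal genes together held 7005 to 8777 TPM per library, a 1.25-fold range over 10 libraries. The pump made up most of this: its 7 catalytic sector genes summed to 2351 to 3657 TPM, and its 6 membrane sector and accessory genes to 1959 to 2612 TPM. The 5 membrane proteins summed to 1559 to 2661 TPM, the 21 hydrolases and activators to 581 to 952 TPM, and the 7 genes of sorting, regulation and fusion to 47.3 to 86.5 TPM. In the right kidney of coarctation mouse 1 the catalytic sector sum was the highest of the 10 libraries and the membrane protein sum the lowest. That library also held the intercalated cell sum of 799.9 TPM and the highest macrophage and leukocyte sum (1160 TPM). The part of these markers in the pump and membrane protein sums was not tested.

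Cd63, a tetraspanin of lysosomes and secretory granules, was the most abundant member. It was at 1809, 2344 and 2059 TPM in the left kidneys of coarctation mice 1, 2 and 3, at 1312, 2051 and 1921 in their right kidneys, at 1714 and 1977 in the left kidneys of sham mice 1 and 2, and at 1655 and 2148 in their right kidneys. The right kidney was lower than the left in each coarctation mouse, and all 4 groups overlapped. Atp6v1f, a subunit of the central stalk of the pump, was at 1585, 1362 and 1319 TPM in coarctation left kidneys, 2149, 1435 and 1413 in coarctation right kidneys, 1368 and 1359 in sham left kidneys and 1367 and 1296 in sham right kidneys. All 3 coarctation right kidneys were above both sham right kidneys, mouse 1 by the widest margin. Atp6v0e, a small membrane sector subunit, was at 1548, 1517 and 1315 TPM in coarctation left, 1736, 1525 and 1059 in coarctation right, 1348 and 1252 in sham left and 1293 and 1249 in sham right kidneys, with overlap throughout.

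The next most abundant members were also pump subunits. Atp6v1g1, of the peripheral stalk, lay between 569 and 744 TPM in all 10 libraries and was the steadiest member (1.31-fold from lowest to highest). Atp6v0b, of the proton-conducting ring, was at 436, 630 and 534 TPM in coarctation left, 397, 667 and 574 in coarctation right, 388 and 696 in sham left and 498 and 637 in sham right kidneys. Mouse 1 had the lowest values of each operation, so that the mice differed more than the sides. Atp6v1e1, of the peripheral stalk, was at 346, 330 and 421 TPM in coarctation left, 555, 345 and 384 in coarctation right, 229 and 359 in sham left and 309 and 420 in sham right kidneys. Atp6v0c, the main ring subunit, was at 164, 247 and 210 TPM in coarctation left and 200, 307 and 297 in coarctation right kidneys, and at 152 and 348 in sham left and 96.2 and 383 in sham right kidneys. It was higher on the right in each coarctation mouse, and the gap between the sham mice was wider than any gap between sides.

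On average over the libraries 3 members were at or above 1000 TPM, 12 at or above 100, 24 between 10 and 100, and 10 below 10. The lowest was Lyst, needed for normal granule size, at 0.820 TPM. The regulator Tfeb averaged 3.27 TPM and ranged 18.5-fold over the libraries, and Igf2r, the large mannose 6-phosphate receptor, averaged 4.67 TPM with a 22.0-fold range. From lowest to highest library 12 members varied less than 2-fold and 5 varied more than 5-fold (Ctsh, Ctsc, Naglu, Tfeb and Igf2r). Levels were higher for shorter transcripts: Spearman's rho between mean TPM and average transcript length was -0.54 over the 46 genes and -0.76 over the 13 pump genes, against -0.34 over all tested genes. These are correlations across genes measured in the same libraries, and genes are not independent replicates. TPM is itself divided by transcript length, so length enters both quantities, and its part in these values of rho was not tested. Subunits of the pump sat at different levels in TPM: Atp6v1f averaged 1465 TPM, and Atp6v1a, the ATP-splitting subunit of the same sector, 16.5 TPM.

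**Figure D2:**
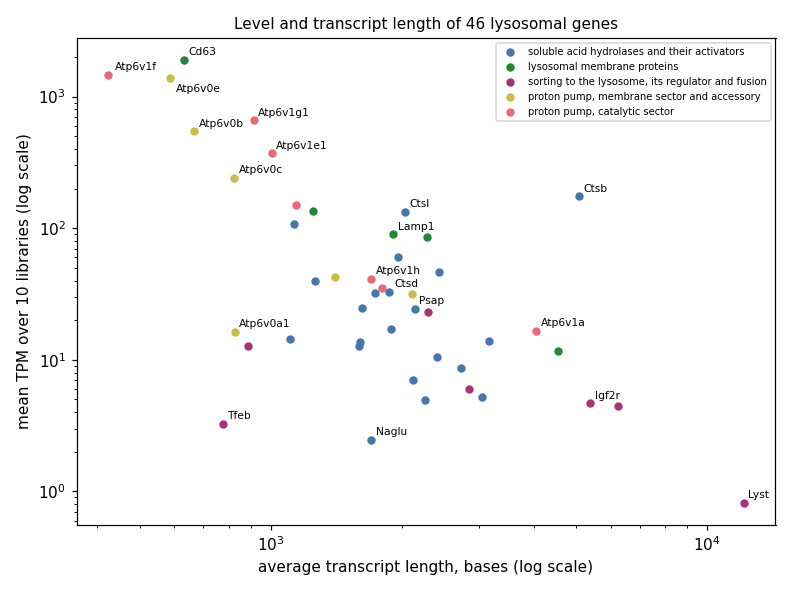
Mean TPM over 10 libraries (vertical, log scale) against average transcript length in bases (horizontal, log scale) for the 46 genes, each a point coloured by role. Short pump subunits and Cd63 lie at the top left, and Ctsb stands above other long transcripts at 175 TPM.

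The first comparison asked whether renin cells of the right and left kidneys differed in these genes after coarctation. The leading difference was in cathepsin B. Ctsb, a cysteine protease, was at 177, 323 and 189 TPM in the left kidneys of mice 1, 2 and 3 and at 80.0, 139 and 128 TPM in their right kidneys, and the groups did not overlap. In the sham mice it was at 134 and 219 TPM on the left and 96.0 and 263 TPM on the right, lower on the right in mouse 1 and higher in mouse 2. The fitted log2 change in coarctation was -1.15 (SE 0.39, 95% interval -1.99 to -0.30, 2.21-fold lower), and it did not pass the edgeR test over all genes (unadjusted p = 0.0119, adjusted p = 0.992). With the mouse as a block the change was -1.14 (SE 0.18) and did not pass either (edgeR unadjusted p = 0.000182, adjusted p = 0.137). Ctsb is a gene of 10 exons on the plus strand of chromosome 14 (63122462 to 63145923 in GRCm38). Its exons share a stretch of 774 bases with Fdft1, a gene of sterol synthesis on the opposite strand, and no source used here gives the strand rule of the counting. Fdft1 was at 9.57, 13.7 and 10.2 TPM on the left and 6.75, 12.0 and 5.88 TPM on the right in coarctation (log2 change -0.62, SE 0.46).

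Tpp1, a lysosomal aminopeptidase, was the other member without overlap toward lower values. It was at 16.7, 18.9 and 18.7 TPM in coarctation left and 9.22, 12.2 and 15.3 TPM in coarctation right kidneys, and at 10.4 and 15.2 TPM in sham left and 12.8 and 10.4 TPM in sham right kidneys. Its log2 change in coarctation was -0.73 (SE 0.30), short of the edgeR threshold (unadjusted p = 0.0300, adjusted p = 1). Gusb, the beta-glucuronidase, was at 14.0, 16.0 and 9.83 TPM on the left and 7.46, 9.96 and 11.1 TPM on the right. It was at 14.0 and 12.8 TPM in sham left and 16.3 and 15.3 TPM in sham right kidneys. Coarctation mice 1 and 2 were lower on the right and mouse 3 was higher, with a log2 change of -0.65 (SE 0.33), and of -0.41 without mouse 2. In bulk libraries of sorted cells, less of such RNA per renin cell and fewer renin cells among those sorted cannot be told apart. Ren1 itself was at 29285, 48620 and 36877 TPM on the left and 5451, 11982 and 10835 TPM on the right in the same libraries. Its log2 change of -2.20 (SE 0.36) had an edgeR adjusted p of 0.165, and passed with the mouse as a block (-2.23, adjusted p = 0.00275, 1.92e-13 to 1 over all alternatives). Of the 11 listed renin cell markers, Ren1 among them, 5 were higher and 6 lower on the right in coarctation (median log2 change -0.05). With the mouse as a block, 4 of the 11 were lower at an unadjusted edgeR p under 0.05 (3.30% of all genes). By the same fit 1 was higher (2.63% of all genes).

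**Figure D3:**
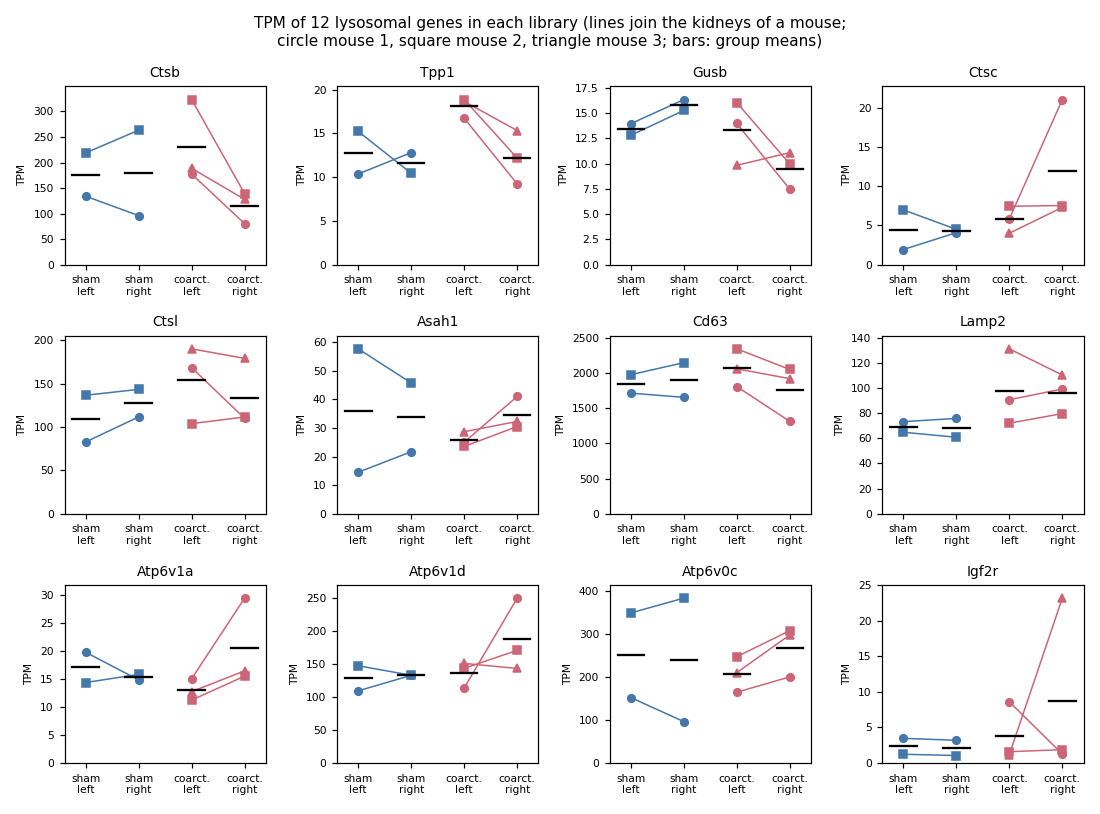
TPM (vertical axes, from 0) of 12 members in the 10 libraries by group (horizontal axes), with a symbol for each mouse, lines joining its kidneys and bars at group means. Ctsb is lower on the right in all 3 coarctation mice (80.0 to 139 TPM against 177 to 323), and the high right values of Ctsc, Atp6v1a and Atp6v1d in coarctation are those of mouse 1.

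Other members were higher on the right. Ctsc, which activates serine proteases of immune cells, was at 5.84, 7.45 and 4.00 TPM in coarctation left and 21.1, 7.54 and 7.31 TPM in coarctation right kidneys, so that mouse 1 alone set the high right mean. Its log2 change was 0.995 (SE 0.60), and 0.23 without the right kidney of mouse 1. Asah1, the acid ceramidase, was at 25.0, 23.5 and 28.7 TPM on the left and 41.0, 30.5 and 32.3 TPM on the right, without overlap, but the sham kidneys covered both ranges (14.5 and 57.6 TPM on the left, 21.7 and 45.7 TPM on the right). Its fitted log2 change was 0.28 (SE 0.49), and leaving out a library or mouse gave 0.06 (without mouse 1) to 0.50 (without the left kidney of mouse 3). Atp6v1a was at 15.1, 11.2 and 12.7 TPM on the left and 29.4, 15.5 and 16.4 TPM on the right, also without overlap. The log2 change of Atp6v1a was 0.53 (SE 0.36), and 0.14 without the right kidney of mouse 1. In that library the intercalated cell sum was 799.9 TPM and the macrophage and leukocyte sum 1160 TPM, and their part in the values of Ctsc and Atp6v1a was not tested.

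None of the 46 members passed the edgeR threshold for coarctation right against left, and none of the 18825 tested genes did (0%). At an unadjusted p under 0.05, 2 members were lower (Ctsb and Tpp1) and 0 were higher, 4.35% in all, against 2.25% of all tested genes lower and 2.37% higher (4.63% in all). The members' share was therefore near that of all genes. DESeq2 called 76 genes and 0 members for this comparison, 28 genes for sham right against left, 34 for the difference of the side changes, 39 for left kidneys and 55 for right kidneys, with 0 members in each, and limma-voom called 0 members in all 5. Groups did not overlap toward lower values in 2 members (2.97% of all genes) and toward higher values in 2, Asah1 and Atp6v1a (8.19% of all genes). With the mouse as a block edgeR called 5 genes (0.0266%), none of them a member, and 3 members were lower at an unadjusted p under 0.05 (Ctsb, Tpp1 and Cd63), against 3.30% of all genes, and 0 were higher, against 2.63%.

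The median log2 change of the members was -0.06, with 19 higher and 27 lower, against a median of 0.02 and 51.6% higher for all tested genes. On log2(TPM + 1) the sign of the members' median turned, to 0.065 with 31 higher, beside 0.062 for all genes. For 25 of the 46 members (54.35%) the 95% interval of the edgeR change lay within 1 log2 unit of 0, against 13.4% of all genes. The median SE was 0.361 for members and 0.714 for all tested genes. By role, the medians were -0.07 for hydrolases (8 higher, 13 lower), -0.19 for membrane proteins (1 higher, 4 lower), 0.08 for sorting and regulation (4 higher, 3 lower), -0.10 for the membrane sector (1 higher, 5 lower) and 0.10 for the catalytic sector (5 higher, 2 lower).

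**Figure D4:**
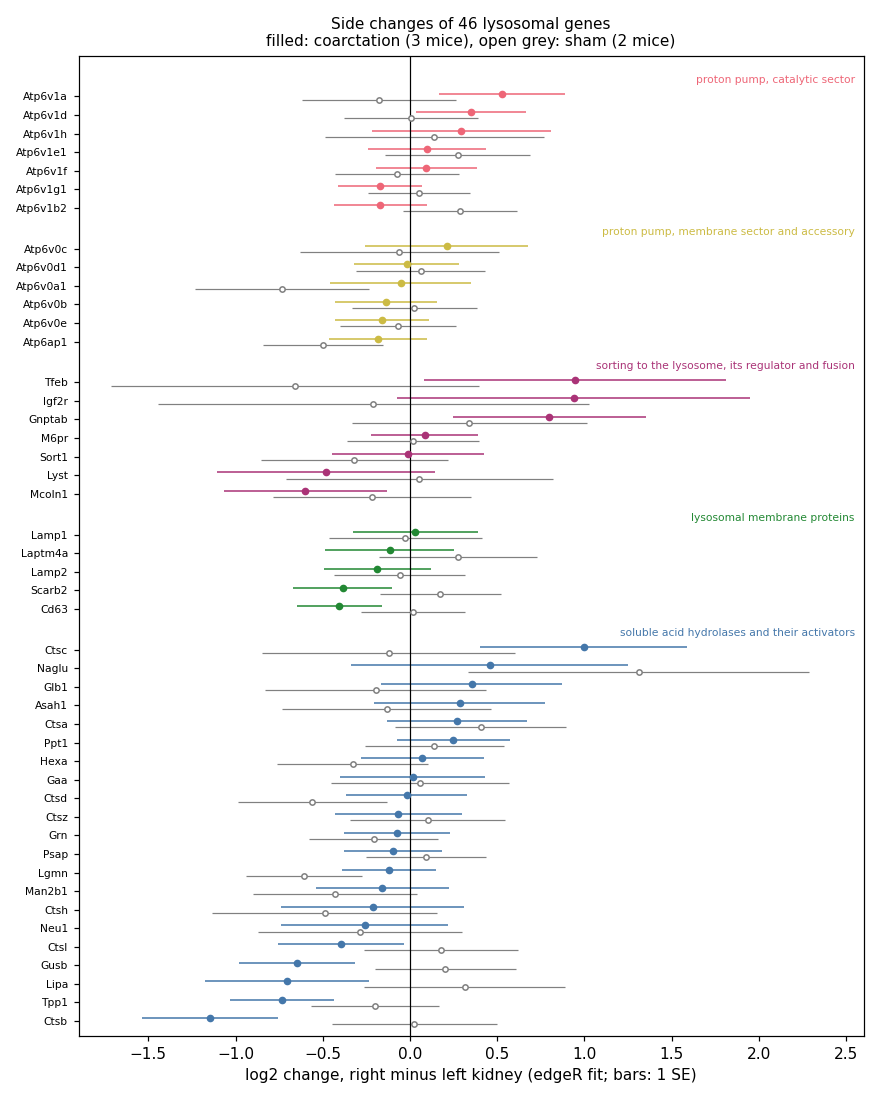
Fitted log2 change of each of the 46 genes from left to right kidney (horizontal axis, bars 1 SE), filled points for coarctation and open grey points for sham, grouped by role (vertical axis). Most bars cross 0, Ctsb lies farthest to the left in coarctation (-1.15) and near 0 in sham, and Ctsc farthest to the right in coarctation (0.995).

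Within each coarctation mouse the kidneys were also set against each other on log2 CPM (counts relative to library size, scaled between libraries by TMM). By that measure 10 members were lower on the right in all 3 mice (21.7%, against 13.5% of all genes): Ctsb, Ctsl, Gusb, Tpp1, Cd63, Scarb2, Mcoln1, Atp6v0b, Atp6v1b2 and Atp6v1g1. Another 4 were higher in all 3 (8.70%, against 14.5%): Ctsa, Glb1, Atp6v0c and Atp6v1a. In TPM, which lacks the TMM scaling, Ctsb, Tpp1 and Cd63 were the members lower in all 3 mice (6.52%, against 8.15% of all genes), and 9 were higher in all 3 (19.6%, against 20.8%). The same 4 genes were among those 9. The change of Ctsb within mice 1, 2 and 3 was -1.24, -1.37 and -0.79 on log2 CPM, and its TPM ratio of right to left was 0.451, 0.429 and 0.677.

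**Figure D5:**
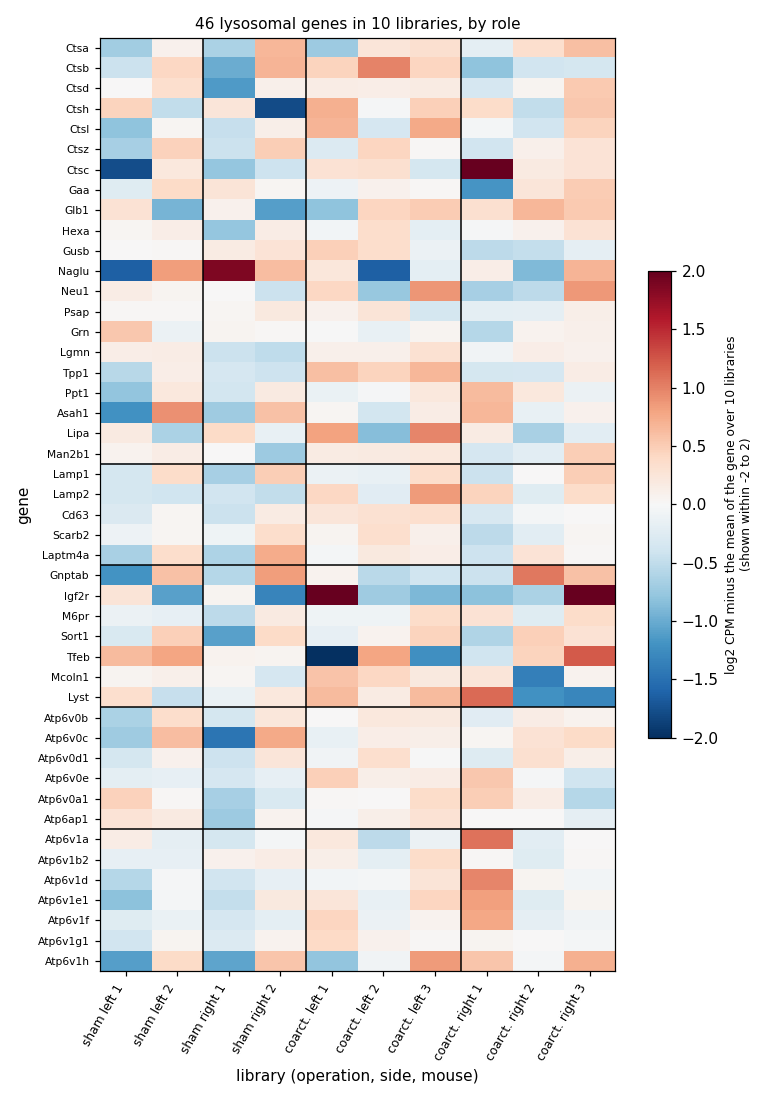
Log2 CPM of the 46 genes (vertical, grouped by role) in 10 libraries (horizontal), each minus the mean of its gene and shown within -2 to 2, red higher and blue lower. Sham mouse 1 is low in several pump and cathepsin genes, and the right kidney of coarctation mouse 1 is high in catalytic sector genes.

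In the sham mice, right against left kidney gave the side difference without coarctation. No member and no gene passed (0%). At an unadjusted p under 0.05 there were 0 members, against 1.94% of all genes (0.845% higher and 1.10% lower). For 15 members the 95% interval lay within 1 log2 unit of 0 (6.74% of all genes). Within mice, on log2 CPM, 13 members were higher on the right in both (24.5% of all genes) and 14 lower in both (24.3%). The members' median log2 change was -0.01, with 23 higher and 23 lower (51.6% of all genes higher). Lgmn, an asparagine-specific protease, was at 29.6 and 27.6 TPM on the left and 21.4 and 17.4 TPM on the right, lower on the right in both mice (log2 change -0.61, SE 0.33). Atp6v0a1, which anchors the pump in the membrane, was at 24.4 and 16.4 TPM on the left and 11.8 and 13.0 TPM on the right (log2 change -0.74, SE 0.50). Its accessory subunit Atp6ap1 was at 42.3 and 36.1 TPM on the left and 22.4 and 33.5 TPM on the right (log2 change -0.50, SE 0.35). Without sham mouse 1 the changes of Atp6v0a1 and Atp6ap1 were -0.33 and -0.10, and without sham mouse 2 they were -1.15 and -1.01. These 3 were, with Ctsd and Tfeb, the 5 members that did not overlap toward lower values (9.77% of all genes), and 4 did not overlap toward higher values (10.9% of all genes): Gusb, Psap, Scarb2 and Atp6v1b2.

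Naglu, an enzyme of heparan sulfate breakdown, was at 0.632 and 3.39 TPM on the left and 8.06 and 2.89 TPM on the right, far apart in mouse 1 and close in mouse 2. Its log2 change of 1.31 (SE 0.98) turned to -0.22 without sham mouse 1. The sham mice differed from each other more than their sides did. Both kidneys of mouse 1 were below both of mouse 2 in 19 members (20.3% of all genes) and above in 11 (38.3% of all genes), and the median log2 difference of mouse 1 from mouse 2 was -0.34 for members and 0.15 for all genes. Members below in mouse 1 included Ctsb, Ctsl, Cd63, Asah1 and Atp6v0c.

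The difference between the side changes of coarctation and sham mice was tested as an interaction. No member passed, nor did any gene (0%), and at an unadjusted p under 0.05 there were 0 members, against 3.05% of all genes (1.68% higher and 1.37% lower). The fitted difference was above 0 in 24 members and below 0 in 22 (50.8% of all genes above), with a median of 0.04. The smallest p among members was that of Ctsb, with a difference of -1.17 in log2 change (SE 0.61, 95% interval -2.50 to 0.16, edgeR unadjusted p = 0.0786, adjusted p = 1.00). Without the right kidney of sham mouse 2 this difference was -0.07. With the mouse as a block, 2 members were lower at an unadjusted p under 0.05 (2.06% of all genes lower), Ctsb and Cd63, and 0 were higher (2.10% of all genes). In that paired fit the difference of Ctsb was -0.99 (SE 0.28, edgeR unadjusted p = 0.00726, adjusted p = 1, 0.832 to 1 over its alternatives) and that of Cd63 -0.41 (SE 0.17, unadjusted p = 0.0403, adjusted p = 1). Gusb differed by -0.85 (SE 0.52). Lipa, the acid lipase, differed by -1.02 (SE 0.74): it was at 11.5, 4.53 and 13.8 TPM in coarctation left and 7.89, 5.78 and 7.09 TPM in coarctation right kidneys, and at 10.2 and 5.31 TPM in sham left and 12.5 and 7.42 TPM in sham right kidneys. Scarb2, the receptor that carries beta-glucocerebrosidase, differed by -0.56 (SE 0.45), with 9.59, 14.6 and 10.6 TPM in coarctation left, 6.90, 11.0 and 11.9 TPM in coarctation right, 11.9 and 12.0 TPM in sham left and 12.8 and 14.8 TPM in sham right kidneys. Leaving out a library or mouse gave -1.47 to -0.60 for Lipa, the latter without the left kidney of coarctation mouse 3, and -0.77 to -0.30 for Scarb2, the latter without the right kidney of sham mouse 2. Within mice, on log2 CPM, 5 members were lower on the right in every coarctation mouse and higher in both sham mice (3.24% of all genes), and 1 was higher in every coarctation mouse and lower in both sham mice (3.21% of all genes). For 0 of the 46 members did the 95% interval of this difference lie within 1 log2 unit of 0 (0.802% of all genes), so a difference of that size is not excluded for any of them.

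Left kidneys of coarctation mice were then compared with left kidneys of sham mice. No member and no gene passed (0%). At an unadjusted p under 0.05, 2 members were higher, Lamp2 and Tpp1 (4.35%, against 1.84% of all genes higher), and 0 were lower (2.91% of all genes, 4.75% in either direction). The 95% interval lay within 1 log2 unit of 0 for 14 members (7.11% of all genes). Lamp2, a membrane protein of the lysosome with a role in autophagy, was at 90.7, 72.0 and 131 TPM after coarctation and 73.2 and 64.8 TPM after sham, with overlap (log2 change 0.79, SE 0.35, edgeR unadjusted p = 0.0439, adjusted p = 0.912). It was 0.43 without the left kidney of coarctation mouse 3. Tpp1, with the values above, did not overlap (log2 change 0.74, SE 0.34, edgeR unadjusted p = 0.0491, adjusted p = 0.912), and leaving out the left kidney of sham mouse 1 or 2 gave 0.44 or 1.16. Ctsl, a cysteine protease, was at 168, 104 and 190 TPM after coarctation and 82.8 and 137 TPM after sham (log2 change 0.76, SE 0.41). For Cd63 the log2 change was 0.41 (SE 0.27). Without sham mouse 1 the changes of Ctsl and Cd63 were 0.40 and 0.25, and without sham mouse 2 they were 1.28 and 0.62. Tpp1 was the 1 member without overlap toward higher values (4.87% of all genes), and 4 did not overlap toward lower values (17.2% of all genes): Ctsd, Grn, Lgmn and Atp6ap1.

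In right kidneys, coarctation against sham, again no member and no gene passed (0%). At an unadjusted p under 0.05, 1 member was higher, Ctsc (2.17%, against 1.91% of all genes higher), and 0 were lower (1.92% of all genes, 3.82% in either direction). The 95% interval lay within 1 log2 unit of 0 for 12 members (8.20% of all genes). Ctsc was at 21.1, 7.54 and 7.31 TPM after coarctation and 4.07 and 4.50 TPM after sham, without overlap (log2 change 1.69, SE 0.70, edgeR unadjusted p = 0.0316, adjusted p = 0.995), and at 0.84 without coarctation mouse 1's right kidney. Over the same right kidneys the macrophage and leukocyte sum was 1160, 463 and 425 TPM after coarctation and 156 and 441 TPM after sham, and its part in Ctsc was not tested. Lamp2 was at 99.2, 79.7 and 110 TPM against 75.8 and 60.8 TPM, without overlap (log2 change 0.66, SE 0.35). Atp6v1d, of the central stalk, was at 250, 171 and 144 TPM against 133 and 133 TPM, without overlap (log2 change 0.67, SE 0.36), and at 0.30 without the right kidney of coarctation mouse 1.

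Igf2r was at 1.27, 1.88 and 23.2 TPM in the right kidneys of coarctation mice and 3.19 and 1.05 TPM in those of sham mice, so that mouse 3 alone was high. Its log2 change of 2.21 (SE 1.23) turned to -0.25 without that library. Toward higher values 4 members did not overlap between right kidneys (5.41% of all genes), Ctsc, Lamp2, Atp6v1d and Atp6v1f. Toward lower values there were also 4 (11.0% of all genes): Gusb, Psap, Scarb2 and Atp6v1b2.

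In both comparisons with sham, most members were on the higher side by the edgeR fit. The median log2 change was 0.23 in left kidneys (31 higher, 15 lower) and 0.22 in right kidneys (32 higher, 14 lower), while all genes had medians of -0.02 (48.8% higher) and -0.05 (47.3% higher). The catalytic sector had the highest medians of the 5 roles on the right (0.48, 6 of 7 higher) and on the left (0.32, 6 of 7 higher). In the same comparisons proximal tubule markers were higher in 11 of 12 on the left (median log2 change 0.62) and 10 of 12 on the right (0.50), and macrophage and leukocyte markers in 9 of 15 on the left (0.84) and 13 of 15 on the right (1.07). Intercalated cell markers were higher in 0 of 9 on the left (-1.38) and in 8 of 9 on the right (2.00). The part of these markers in the members' medians was not tested. The members' medians differed between scales and without sham mouse 1. On log2(TPM + 1) the members' medians were -0.03 on the left (21 higher) and 0.12 on the right (28 higher), beside -0.11 and -0.08 for all genes. Without both kidneys of sham mouse 1 they were 0.07 and -0.05, beside 0.09 and 0.14 for all genes, and without those of sham mouse 2 they were 0.45 and 0.54.

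Other genes of the pathway, listed by function, gave no call in coarctation right against left either. Of all tested genes, 4.63% were at an unadjusted edgeR p under 0.05 in this comparison, and 51.6% were higher. Of 35 other lysosomal hydrolases and transporters, 18 were higher and 17 lower, and 1 was at an unadjusted p under 0.05: Acp2, an acid phosphatase, at 2.06, 1.81 and 1.26 TPM on the left and 5.69, 3.27 and 2.95 TPM on the right (log2 change 1.10, SE 0.47, and 0.71 without the right kidney of mouse 1). In sham mice Acp2 was at 3.857 and 3.891 TPM on the left and 1.328 and 2.155 TPM on the right (log2 change -1.16, SE 0.57). Plbd2 had a log2 change of 0.89 (SE 0.48, and 0.57 without the right kidney of mouse 2). Of 14 lysosome regulators 5 were higher and 9 lower, and 1 was at an unadjusted p under 0.05: Mitf, a factor related to TFEB, at 2.30, 1.43 and 2.14 TPM on the left and 1.13, 0.444 and 0.750 TPM on the right (log2 change -1.47, SE 0.62). Tfe3, another factor of that family, had a log2 change of -0.96 (SE 0.59, and -0.62 without the left kidney of mouse 2). Tfeb, Mitf and Tfe3 were each below 7 TPM in every library.

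Of 24 genes of lysosome-related organelles and exocytosis, 11 were higher and 13 lower. Bloc1s1, a subunit of a complex that forms such organelles, was at 959 to 1255 TPM on the left and 766 to 1089 TPM on the right (log2 change -0.42, SE 0.26, and -0.16 without the left kidney of mouse 1), and Ap3b1, of the adaptor that sorts cargo to them, had a log2 change of 0.59 (SE 0.41, and 0.92 without mouse 3). Of 7 other widely expressed pump genes 2 were higher and 5 lower, with Vma21, a pump assembly factor, at -0.32 (SE 0.34, and -0.09 without mouse 2) and Tcirg1, an isoform of the membrane anchor, at -0.89 (SE 0.70). Tcirg1 was at 11.1 TPM in the left kidney of mouse 2 and at 1.50 to 3.00 TPM in the other 5 coarctation libraries, and its change turned to 0.51 without that library.

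The intercalated cell markers include pump subunits and other genes of that cell. All 9 were higher on the right in coarctation (51.6% of all genes), with a median log2 change of 2.66. By edgeR, 6 of them were higher at an unadjusted p under 0.05 (2.37% of all genes). Among members of the widely expressed pump the median was -0.10 in the membrane sector and 0.10 in the catalytic sector. Atp6v1g3 was at 63.4, 24.3 and 8.78 TPM on the left and 654, 75.5 and 101 TPM on the right (log2 change 3.04, SE 0.88, edgeR adjusted p = 0.921), and Atp6v1c2 at 7.85, 3.22 and 2.51 TPM and 45.8, 13.4 and 14.3 TPM (log2 change 2.33, SE 0.67, adjusted p = 0.921). Both were called by edgeR without the filter on low counts (adjusted p = 9.52e-13 and 0.022; 9.52e-13 to 1 and 0.022 to 1 over their alternatives), and without the right kidney of mouse 1 their changes were 1.28 and 1.44. The widely expressed counterpart Atp6v1g1 was at 706, 711 and 581 TPM on the left and 595, 744 and 657 TPM on the right. On log2 CPM, Atp6v0c and Atp6v1a of the widely expressed pump were higher on the right in all 3 coarctation mice. Atp6v0b, Atp6v1b2 and Atp6v1g1 were lower in all 3 by that measure.

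Markers of the other cell types differed between mice, and the paired fit often gave other counts. Of 15 macrophage and leukocyte markers 10 were higher on the right in coarctation (median log2 change 0.25), and 15 with the mouse as a block (median 1.59). Within mice 14 of the 15 were higher in mouse 1 and in mouse 3, and 11 were lower in mouse 2. H2-Aa (log2 change 2.80, SE 0.78) and Cd74 (2.16, SE 0.62) had the smallest p, and were at 1.82 and 1.31 without the right kidney of mouse 1. Without the filter on low counts edgeR called H2-Aa (adjusted p = 2.14e-05), Cd74 (1.44e-05) and the podocyte marker Podxl (0.024), and DESeq2 also called H2-Aa, while the adjusted p reached 1 under other alternatives for each. Of 12 proximal tubule markers 11 were lower (median -0.55), and 8 with the mouse as a block (median -0.07), and all 12 were higher on the right within mouse 2. Slc27a2 was at -0.76 (SE 0.69) and Lrp2 at -0.62 (SE 0.57), and without the left kidney of mouse 3 they were at -0.05 and -0.26. Podocyte markers were lower in 5 of 5, also with the block, with Podxl at -2.97 (SE 1.05), and at -5.00 without the right kidney of mouse 1. Endothelial markers were lower in 5 of 7, also with the block, with Tek at 2.36 (SE 1.34) and Cdh5 at -1.45 (SE 1.19), and at 4.28 without the left kidney of mouse 3 and -2.74 without mouse 1. Among 11 renin cell markers 6 were lower, also with the block, and Gja5 was at -1.13 (SE 0.50), and at -0.66 without the left kidney of mouse 1. The part of these markers in the values of the lysosomal genes was not tested.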

How the data were processed

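RNA-seq of 10 libraries (SMART-Seq v4) was deposited as 1 gene table. Per the file headers it holds TPM, estimated counts (computed by the authors from TPM scaled by length and library size, so not whole) and average transcript length in bases. FastQC and GRCm38 (mm10) come from the submitters' processing notes, and the sources used here do not name the aligner, the quantifier or the strand rule. Estimated counts were rounded, filtered with filterByExpr and scaled by TMM, and 1 edgeR 4.0.16 quasi-likelihood model of 4 groups was fitted in R 4.3.3 to 18825 genes (common dispersion 0.45, 6 residual degrees of freedom). It gave 5 two-sided comparisons, with Benjamini-Hochberg adjustment over all tested genes and a threshold of 0.05. TPM values are printed as deposited by the authors, without TMM scaling. Log2 CPM used a prior count of 2. The edgeR fits were first run on simulated counts with known fold changes. Those counts held no mouse effect, so the pairing of kidneys was not part of that check.

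Each number in the labels marks 1 mouse, so the left and right kidneys of a mouse are paired by animal. Deviations from group means correlated at 0.127, 0.05 and 0.031 in the coarctation mice and at 0.398 in the sham pair. The main model has no mouse term, and in alternatives mouse was added as a block. Other alternatives were DESeq2 1.42.0 and its size factors, limma 3.58.1 on voom values, on log2(TPM + 1) and on log2(TPM + 0.1), no filter, and leaving out each library or mouse. Members, lists and roles were chosen with earlier results of these data known. Named members are the 8 with the highest mean TPM, the 4 with the smallest p in each comparison, and those whose right and left kidneys did not overlap in coarctation; of every other list the 2 with the smallest p there are named, except for 1 gene that is not reported here. Further names were chosen after their values were seen. Positions are from GENCODE vM21. Copies at 95% identity or more over at least 200 bases exist for 4 members (Cd63, Atp6v0c, Atp6v1g1 and M6pr), none at 1% of the member's TPM, and 15 members share exon bases with another gene. Mice are the replicates, reads carry no molecular identifiers, and promoters were missing for some members, Ctsb included.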

Additional observations from a re-analysis of the deposited data

Results flagged for a closer look

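In 6 members the side change on log2 CPM had 1 sign in all 3 coarctation mice and the other sign in both sham mice. The pattern was lower in coarctation in 5 (3.24% of all genes) and higher in 1 (3.21% of all genes). The fitted differences between the side changes (coarctation minus sham, log2) were -0.57 for Ctsl, 0.55 for Glb1, -0.85 for Gusb, -0.56 for Scarb2, -0.46 for Atp6v1b2 and -0.22 for Atp6v1g1. The edgeR interaction test passed for none of them (unadjusted p = 0.331, 0.513, 0.129, 0.233, 0.296 and 0.570, adjusted p = 1.00 for each). In TPM only Glb1, a beta-galactosidase, kept that split, with right to left ratios of 2.34, 1.30 and 1.19 in coarctation mice and 0.919 and 0.884 in sham mice. Ctsl had a ratio of 1.07 in coarctation mouse 2, Gusb of 1.13, Scarb2 of 1.13 and Atp6v1g1 of 1.13 in mouse 3, and Atp6v1b2 of 1.01 in mouse 1, each on the other side of 1 from its log2 CPM change.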

How the results depend on the processing

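For coarctation right against left, genes called numbered 0 in the main model, 112 without the filter, 76 by DESeq2 and 3 on log2(TPM + 0.1), and leaving out a library or mouse gave 0 to 4. For sham right against left they were 19 without the filter, 28 by DESeq2 and 2 on log2(TPM + 1), for the difference 63 and 34 (0 to 1 leaving out), for left kidneys 67 and 39 with 3 on log2(TPM + 1), and for right kidneys 70 and 55 (0 to 3 leaving out). The 1 member called in any of these was Igf2r in right kidneys without the filter (2.28, edgeR adjusted p = 0.0213; 0.0213 to 1 over its alternatives). With mouse as a replicate block, edgeR called 5 genes and limma-voom 6 for coarctation right against left, and 0 members in every comparison it could be run in. In that paired fit Ctsb was at -1.14 (SE 0.18, edgeR adjusted p = 0.137, against 0.992 unpaired and 0.0604 to 1 over all alternatives), and Tpp1, Cd63 and Ctsb were lower at an unadjusted p under 0.05 (3.30% of all genes lower). Mouse as a fixed block could not be fitted for coarctation against sham, since each mouse had 1 operation.

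The members' median on log2(TPM + 1) and log2(TPM + 0.1) was 0.065 and 0.066 for coarctation right against left, 0.139 and 0.142 for the difference, and -0.025 and -0.027 for left kidneys. Leaving out a library or mouse gave medians of -0.134 to 0.111 for coarctation right against left, -0.219 to 0.200 for sham, -0.351 to 0.260 for the difference, 0.069 to 0.453 for left kidneys and -0.057 to 0.540 for right kidneys. Tcirg1 turned from -0.89 to 0.510 without the left kidney of coarctation mouse 2 and to 0.647 without that mouse (range -1.50 to 0.647), Naglu to -0.219 without sham mouse 1 (range -0.219 to 3.56), and Igf2r to -0.252 without the right kidney of coarctation mouse 3 and -0.253 without that mouse (range -0.253 to 3.06). The cause was not tested. With 2 sham mice, where 1 is left out the other is assumed to vary like the coarctation groups.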
